A study of Homo sapiens with 1536 samples.

Results

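Fluvastatin, Simvastatin and Lovastatin are the 3 statins of a pooled viability screen, and they were taken by compound name from the table of relative cell numbers. They are 3 of the 180 compounds of the screen, of which all but 6 have relative cell numbers, and they account for 24 of 1536 wells and for 1440 of 83520 relative cell numbers. In the screen, 5 human breast cancer cell lines that carry doxycycline-inducible Cas9 were pooled in every well, each line as 12 populations with 1 guide RNA (sgRNA) target apiece. All wells, DMSO controls included, held cells in which Cas9 had been induced before the compound was added, and cells were lysed 72 h after treatment. Each statin was given at 10, 100, 1000 and 10000 nM in 2 replicate wells per dose, and the solvent control was 96 DMSO wells. The lines were ZR-75-1 (estrogen receptor positive), SKBR3 (HER2 positive) and 3 triple-negative lines, namely MDA-MB-231, BT-20 and HCC-38. The sgRNAs targeted heat shock factors (HSF1, HSF2), genes of the unfolded protein response (ERN1, XBP1, ATF3, ATF4, ATF6), of the oxidative stress response (NFE2L2, KEAP1) and of autophagy (ATG7), and a solute carrier (SLC35F2), and sgNT stands for 5 non-targeting guides summed into 1 population. Because lines share a well, they also share its dose and its errors, and while the methods describe the replicates as biologically independent, the labels give no separate cultures, so the p-values measure only the spread between wells, which may be technical.

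Statins inhibit HMG-CoA reductase, the enzyme that makes mevalonate and sets the rate of cholesterol synthesis. Mevalonate also supplies the farnesyl and geranylgeranyl groups that anchor some signalling proteins to membranes, so a block of the pathway can affect growth and the cytoskeleton as well as sterols. Lovastatin is a fungal metabolite, and Simvastatin is its semisynthetic relative with an extra methyl group on the side-chain ester. Both are lactones that must be opened to the acid form that binds the enzyme. Fluvastatin is fully synthetic, has a fluorophenyl indole in place of the hexahydronaphthalene ring system of the other two, and is used as the open acid.

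A line was recognised in the reads by a barcode of 8 bases downstream of the guide. The 5 barcodes are shown because every line-level value rests on telling them apart, and they are written whole in capitals since each base is read. MDA-MB-231 and HCC-38 share their first letters but differ at 6 of the 8 bases, and the closest pair, ZR-75-1 and HCC-38, differs at 4.
ZR-75-1: ATCACTGG
SKBR3: CGGTGACC
HCC-38: TACAGAGG
MDA-MB-231: TAACAGTT
BT-20: ATTGTCAA

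The statin wells held 152384 to 1598727 reads, against 155067 to 986006 in the DMSO wells, and the Lovastatin wells (764746 to 1598727 reads) were deeper than those of Fluvastatin (152384 to 562025) and Simvastatin (176035 to 501431). At least 8278 reads stood behind each line and at least 190 behind each line-sgRNA pair in a statin well. The read counts of replicate wells were not copies of each other, with a chi-square of 49.8 to 293.4 times its degrees of freedom in the 12 pairs of wells. Relative cell number is the cell number read from the spike-in standard curve of a well, as a percentage of the median of DMSO wells, and the value of a line is the mean over its sgRNAs (10 in ZR-75-1, where sgHSF1 and sgKEAP1 are left out as in the methods).

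The question of the dose series was which lines have fewer cells than in DMSO under a statin and from which dose. MDA-MB-231 ended with less than 50% of its DMSO cell number under each of the 3 statins at 10000 nM, and under Fluvastatin also at 1000 nM. Without a count at the start of treatment, death of cells and slower growth cannot be told apart in these values. Fluvastatin at 10000 nM lowered the cell number of all 5 lines, Lovastatin that of 4 lines and Simvastatin that of MDA-MB-231 alone among those past the test. Of 15 combinations of statin and line, 10 were below DMSO at 10000 nM in limma at an adjusted p of 0.05, 2 at 1000 nM, 1 at 100 nM and 1 at 10 nM, and none was above DMSO. Over all compounds in the fit, which are the 180 less the 6 without relative cell numbers and 2 left out as in the methods, 66% of the tests were below DMSO at the highest dose, 34.5% at the third, 20.8% at the second and 10% at the lowest, so the number of statin calls was near the background at 10000 nM and did not stand above it at lower doses.

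**Figure D1:**
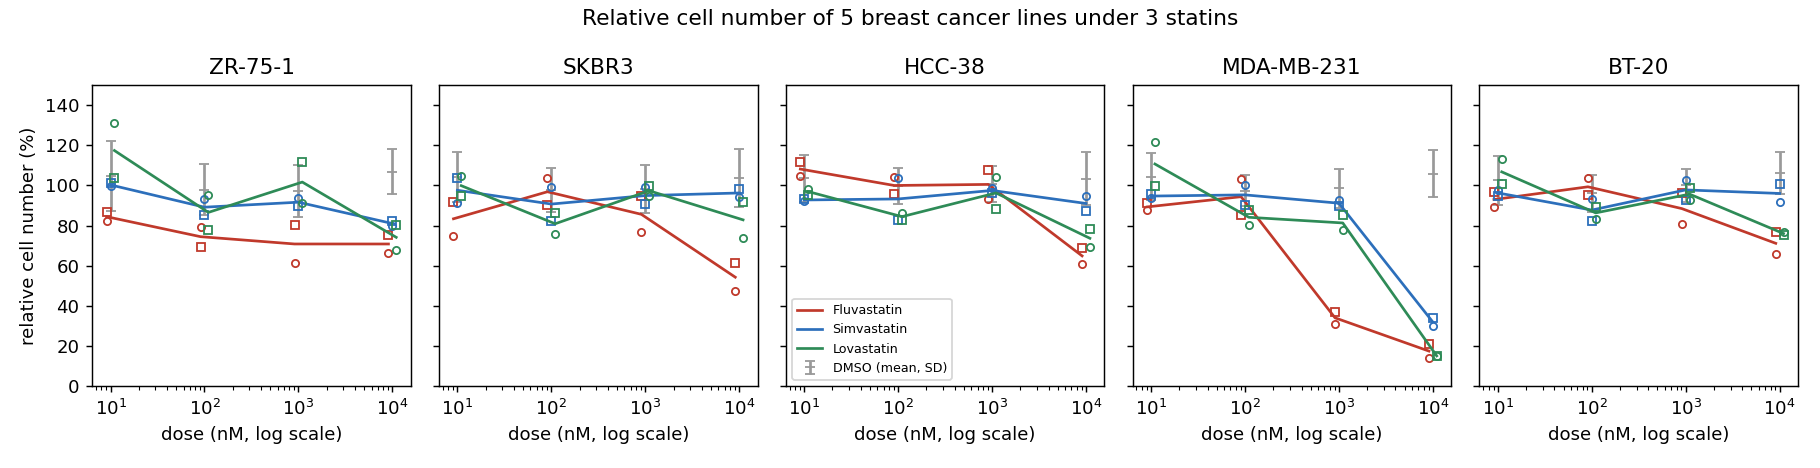
Relative cell number (percent of the DMSO median, y axis) against dose in nM (log x axis) in 5 panels, 1 per line. Circles are replicate 1, squares replicate 2, lines the mean of both, and grey bars the mean and SD of 24 DMSO wells with the same dose label; points are shifted slightly sideways. In MDA-MB-231 the Fluvastatin line has dropped to 34.1% at 1000 nM, while all 3 statins lie between 15.1% and 32% at 10000 nM.

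In MDA-MB-231, Fluvastatin left 87.5% and 91.1% of the DMSO cell number at 10 nM in replicates 1 and 2, 103.4% and 85.3% at 100 nM, 31% and 37.1% at 1000 nM, and 14% and 21% at 10000 nM. Both wells at 1000 nM lay below all 24 DMSO wells with that dose label, which ranged from 81.6% to 121.8%. The difference from DMSO in log2(relative cell number + 1) was -1.503 ± 0.12 (SE, limma, adjusted p = 2.79e-25) at 1000 nM and -2.55 ± 0.16 (adjusted p = 2.25e-38) at 10000 nM. Simvastatin left 93.7% and 95.7% at 10 nM, 100.4% and 90.2% at 100 nM, 92.8% and 89.5% at 1000 nM, and 29.8% and 34.1% at 10000 nM. Its wells overlapped the DMSO wells up to 1000 nM and fell clear of them only at 10000 nM, where the log2 difference was -1.69 ± 0.16 (adjusted p = 3.12e-21). Lovastatin left 121.6% and 99.7% at 10 nM, 80.4% and 87.9% at 100 nM, 77.6% and 85% at 1000 nM, and 15% and 15.2% at 10000 nM. The log2 difference of Lovastatin was -0.27 ± 0.12 at 1000 nM, which did not pass after adjustment, and -2.72 ± 0.16 (adjusted p = 8.35e-42) at 10000 nM. At 10000 nM the relative cell numbers averaged 17.5% ± 4.97 (SD, n = 2) for Fluvastatin, 32% ± 3.03 for Simvastatin and 15.1% ± 0.121 for Lovastatin, and the 24 DMSO wells averaged 105.9% ± 11.9. Of all compounds, 68% lowered MDA-MB-231 at their highest dose.

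A straight line between neighbouring doses on the log scale crossed 50% of the DMSO cell number in MDA-MB-231 at 546.4 and 541.1 nM of Fluvastatin in the 2 replicates, at 2760 and 3174 nM of Lovastatin and at 4782 and 5166 nM of Simvastatin. The replicates of one statin did not overlap those of another, and with 4 doses these crossing points are rough descriptions. No other line crossed 50% in both replicates under any statin. SKBR3 under Fluvastatin came closest, crossing at 8184 nM in replicate 1 and staying above 50% in replicate 2.

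The shift in MDA-MB-231 was visible in the reads before any standard curve was applied. The line made up 11.9% to 16.9% of the reads of the 5 lines in the 96 DMSO wells. At 10000 nM its share was 3.46% and 3.89% in the Fluvastatin wells, 4.67% and 4.24% in the Simvastatin wells, and 2.62% in both Lovastatin wells. At 1000 nM it was 6.08% and 5.86% under Fluvastatin, 13.1% and 14% under Simvastatin, and 12.2% and 12.0% under Lovastatin, the latter at the lower edge of the DMSO wells. HCC-38, the line with the most reads in the pool, rose in share from a median of 42.1% in the 24 DMSO wells of the highest dose label to between 47% and 48.8% in the 6 statin wells at 10000 nM. A share of reads rises for a line when that of another line falls, so this rise is not a gain of cells.

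**Figure D2:**
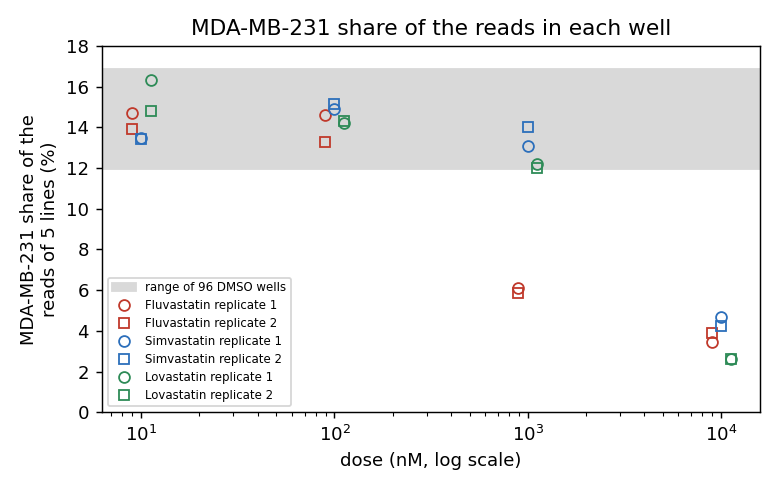
Share of the reads of the 5 lines that carry the MDA-MB-231 barcode (percent, y axis) against dose in nM (log x axis), 1 point per statin well; the grey band is the range of the 96 DMSO wells (11.9% to 16.9%). The Fluvastatin wells leave the band at 1000 nM (6.08% and 5.86%) and all 6 wells at 10000 nM lie at or below 4.67%.

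In the other lines the falls at 10000 nM were smaller. Fluvastatin left 47.5% and 61.1% of SKBR3 (log2 difference -0.92 ± 0.16, adjusted p = 1.54e-07), 61.1% and 68.7% of HCC-38 (-0.65 ± 0.12, adjusted p = 1.22e-06), 65.7% and 76.6% of BT-20 (-0.57 ± 0.13, adjusted p = 5.67e-05) and 66.1% and 75.5% of ZR-75-1 (-0.58 ± 0.17, adjusted p = 0.00278). In each of these lines both wells lay below all 24 DMSO wells of the dose label. Lovastatin left 69.3% and 78% of HCC-38 (-0.47 ± 0.12, adjusted p = 0.000594), 76.9% and 75.2% of BT-20 (-0.47 ± 0.13, adjusted p = 0.00108) and 68% and 80.3% of ZR-75-1 (-0.52 ± 0.17, adjusted p = 0.00898), again below all DMSO wells. In SKBR3, Lovastatin left 73.8% and 91.8%, which overlapped the DMSO wells and did not pass (adjusted p = 0.127). Simvastatin left 79.6% and 82.4% of ZR-75-1, with both wells just under the lowest DMSO well (83.6%) and an adjusted p of 0.0684. Simvastatin left 94.3% and 98.2% of SKBR3, 94.8% and 87.2% of HCC-38 and 91.5% and 100.4% of BT-20, all within the range of the DMSO wells.

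Below 10000 nM, 3 further Fluvastatin values passed. ZR-75-1 was at 79.4% and 69.5% at 100 nM (-0.38 ± 0.14, adjusted p = 0.0173) and at 61.5% and 80.2% at 1000 nM (-0.45 ± 0.14, adjusted p = 0.00446), and SKBR3 was at 75% and 91.7% at 10 nM (-0.31 ± 0.13, adjusted p = 0.0386). The SKBR3 value at 10 nM was not followed by a fall at 100 nM, where the wells read 103.5% and 90.2%. Without replicate 1, the log2 difference of SKBR3 at 10 nM was -0.17 (adjusted p = 0.535), that of ZR-75-1 at 1000 nM was -0.26 (adjusted p = 0.320) and that of HCC-38 under Lovastatin at 10000 nM was -0.39 (adjusted p = 0.0707). Without replicate 2, the difference of ZR-75-1 at 100 nM was -0.29 (adjusted p = 0.238), and with all 12 sgRNAs it was -0.33 (adjusted p = 0.133). The SKBR3 value at 10 nM also did not pass with the median of the sgRNAs (-0.29, adjusted p = 0.0664) or against all 96 DMSO wells (-0.27, adjusted p = 0.0834). With sgNT alone in place of the mean of the sgRNAs, 8 of the 60 values passed. The falls of MDA-MB-231, of HCC-38 and of SKBR3 under Fluvastatin at 10000 nM were among them, whereas those of BT-20 and ZR-75-1 were not, and the log2 difference of ZR-75-1 at 100 nM of Fluvastatin was 0.040. The 46 means of statin and line that did not pass ranged from 80.9% to 117.3% of DMSO. The labels tie every combination of dose and replicate number to its own plates in the DMSO wells and do not give the plate of a statin well, so dose and plate cannot be told apart within a statin.

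The next question was whether the 3 statins differ at the same dose, and 3 pairs of statins were compared at 4 doses in 5 lines, with p-values adjusted over the 60 differences. Fluvastatin left fewer MDA-MB-231 cells than either lactone at 1000 nM and fewer than Simvastatin at 10000 nM, and Lovastatin left fewer than Simvastatin at 10000 nM. Of the 60 differences 8 passed, 7 of them with the lower value under Fluvastatin. All folds here are ratios of relative cell number on the log2(value + 1) scale, which slightly understates ratios of low values.

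Lovastatin and Simvastatin, which differ by 1 methyl group, were told apart in a single comparison of 20. In MDA-MB-231 at 10000 nM, Simvastatin left 29.8% and 34.1% and Lovastatin 15% and 15.2%. The wells did not overlap, and the cell number under Simvastatin was 2.04 times that under Lovastatin (95% interval 1.53 to 2.73, adjusted p = 4.73e-05). The same pair of values in percent with no log, a difference of 16.9 percentage points, did not pass (adjusted p = 0.178), and with sgNT alone the log2 difference was 1.07 (adjusted p = 0.0825). In the other 4 lines at 10000 nM, Simvastatin stood above Lovastatin in each mean, by 1.26 times in BT-20 (interval 0.991 to 1.60), 1.23 times in HCC-38 (0.981 to 1.55), 1.17 times in SKBR3 (0.866 to 1.57) and 1.095 times in ZR-75-1 (0.797 to 1.51), and none passed. Over the 19 comparisons of the pair that did not pass, the ratios lay between 0.861 and 1.26 and their intervals between 0.662 and 1.60, so differences of up to about that size remained possible.

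Fluvastatin stood apart from both mainly in MDA-MB-231 at 1000 nM, and whether its different ring system has a part in this was not tested. Its wells read 31% and 37.1% there, against 92.8% and 89.5% for Simvastatin and 77.6% and 85% for Lovastatin. Simvastatin left 2.64 times as many cells as Fluvastatin (95% interval 2.10 to 3.32, adjusted p = 6.31e-13) and Lovastatin 2.35 times as many (1.87 to 2.96, adjusted p = 1.32e-10). At 10000 nM Simvastatin still left 1.81 times as many MDA-MB-231 cells as Fluvastatin (1.36 to 2.42, adjusted p = 0.00113), which in percent with no log was a difference of -14.5 percentage points that did not pass (adjusted p = 0.260). Fluvastatin and Lovastatin at 10000 nM did not differ beyond the spread, at a ratio of 1.13 with an interval of 0.843 to 1.51.

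In SKBR3 at 10000 nM, Fluvastatin left 0.565 times the cells of Simvastatin (95% interval 0.419 to 0.761, adjusted p = 0.00244) and 0.658 times those of Lovastatin (0.489 to 0.887, adjusted p = 0.0465). In HCC-38 at 10000 nM it left 0.716 times the cells of Simvastatin (0.569 to 0.900, adjusted p = 0.0440), and in ZR-75-1 at 1000 nM 0.697 times those of Lovastatin (0.540 to 0.901, adjusted p = 0.0465). The last 3 adjusted p-values sit close to the threshold. With sgNT alone in place of the mean of the sgRNAs, all 4 of these differences kept their sign and none passed (adjusted p of 0.328 to 0.615). The 33 comparisons of Fluvastatin that did not pass held ratios between 0.726 and 1.19, with intervals reaching from 0.559 to 1.51.

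**Figure D3:**
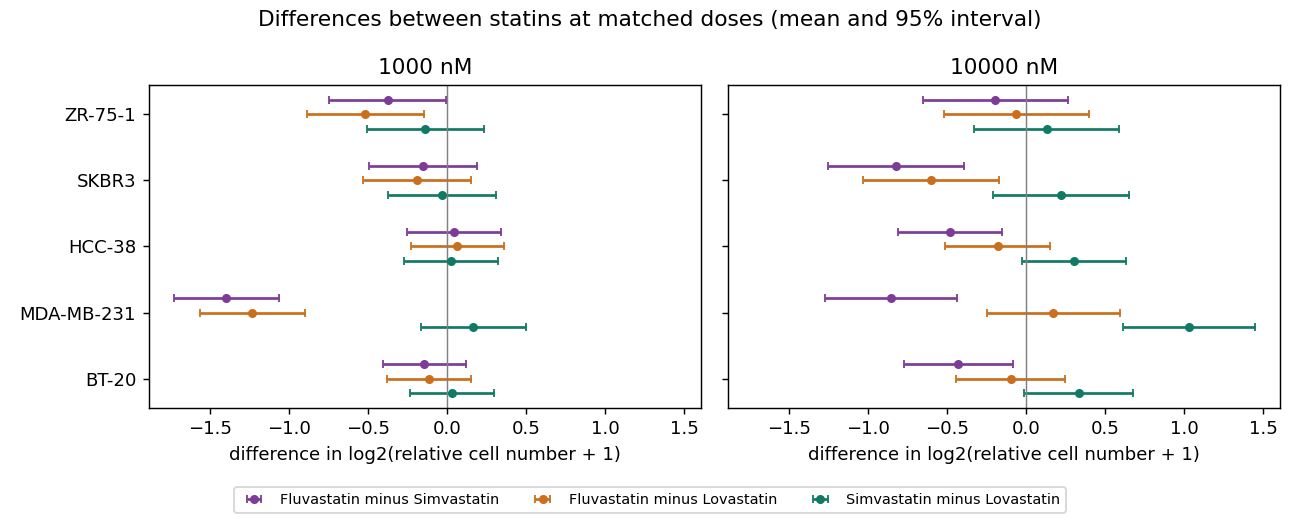
Difference in log2(relative cell number + 1) between 2 statins (x axis) in each line (y axis) at 1000 nM (left) and 10000 nM (right); points are the limma estimates and bars their 95% intervals. At 1000 nM both Fluvastatin differences in MDA-MB-231 lie below -0.90 with their whole interval, while at 10000 nM the Simvastatin minus Lovastatin difference in that line is 1.03.

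To sum up a whole dose series, the relative cell numbers were added with a weight of 1 at 100 and 1000 nM and 0.5 at 10 and 10000 nM. This area under the curve (AUC), which is 300 for a line at the DMSO level throughout, gave 15 differences between statins. The AUC of MDA-MB-231 was 181.8 ± 4.67 (SD, n = 2) for Fluvastatin, 249.7 ± 7.32 for Simvastatin and 228.3 ± 2.91 for Lovastatin. Fluvastatin was lower than Simvastatin by an AUC difference of -67.9 (95% interval -96.7 to -39.1, adjusted p = 9.00e-05) and than Lovastatin by -46.5 (-75.3 to -17.7, adjusted p = 0.00851), while Simvastatin minus Lovastatin was 21.4 (-7.37 to 50.2, adjusted p = 0.334). In ZR-75-1 the AUC was 222.9 ± 11.1 for Fluvastatin, 271.4 ± 7.14 for Simvastatin and 283.9 ± 2.85 for Lovastatin. There Fluvastatin minus Simvastatin was -48.5 (-82.5 to -14.4, adjusted p = 0.0205) and Fluvastatin minus Lovastatin -61.0 (-95.1 to -27.0, adjusted p = 0.00380). No AUC difference passed in SKBR3, HCC-38 or BT-20, where the Fluvastatin AUC was 251.25 ± 13.99, 286.9 ± 9.24 and 269.8 ± 11.4, the Simvastatin AUC 282.5 ± 11.9, 282.6 ± 18.7 and 281.6 ± 12.8, and the Lovastatin AUC 269.6 ± 13.8, 265.96 ± 11.9 and 273.3 ± 3.30. The 9 intervals of these lines reached from -59.4, for Fluvastatin minus Simvastatin in SKBR3 (adjusted p = 0.0896), to 50.01, for Fluvastatin minus Lovastatin in HCC-38. Fluvastatin minus Simvastatin in ZR-75-1 did not pass when all 12 sgRNAs were kept in ZR-75-1 (-50.1, adjusted p = 0.0898) or when the reference was the 12 DMSO wells with the same dose and replicate labels (-47.7, adjusted p = 0.0626). With sgNT alone none of the 4 differences passed, and Fluvastatin minus Lovastatin in MDA-MB-231 shrank to -17.0 (adjusted p = 0.985).

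Each line was then set against the other 4 lines in the same replicate. MDA-MB-231 had the lower AUC under all 3 statins, by -64.5 and -87.3 in the 2 replicates of Fluvastatin, -33.5 and -26.0 for Simvastatin and -46.5 and -43.3 for Lovastatin. The mean differences were -75.9 (95% interval -89.2 to -62.6, limma, adjusted p = 8.96e-21), -29.8 (-43.1 to -16.5, adjusted p = 9.19e-05) and -44.9 (-58.2 to -31.6, adjusted p = 5.75e-09). Over all compounds, 29.7% had a lower AUC in MDA-MB-231 than in the other lines by the same test. Ordered from the most negative difference in this line, Fluvastatin ranked 2, Lovastatin 4 and Simvastatin 23. When the raw reads were used as shares, with no standard curve, the differences of MDA-MB-231 passed for all 3 statins. With sgNT alone they were -68.2 (adjusted p = 0.0754) for Fluvastatin, -71.8 (adjusted p = 0.0540) for Lovastatin and 11.5 (adjusted p = 0.853) for Simvastatin, which turned the direction of the last. The AUC of the sgNT cells of MDA-MB-231 under Simvastatin was 280.1, above the median of the 12 sgRNAs of the line (253.01). These sgNT cells still fell at 10000 nM, to 34.2% of DMSO, near the median of the 12 sgRNAs (32.6%). That fall passed with sgNT alone (-1.64 on the log2 scale, limma, adjusted p = 6.76e-07). At 1000 nM they were at 82.6%, under the median of 91.9%, so the higher AUC was not seen at that dose.

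HCC-38 and BT-20 had a higher AUC than the other lines under Fluvastatin. In HCC-38 the differences were 54.6 and 56.4 (mean 55.5, interval 38.99 to 71.99, adjusted p = 6.09e-09), and in BT-20 31.2 and 36.9 (mean 34.1, interval 23.1 to 45.1, adjusted p = 8.02e-08). Such a call was made for 27.9% of compounds in HCC-38 and for 45.9% in BT-20. ZR-75-1 had a lower AUC than the other lines under Fluvastatin (-27.1 and -22.0, adjusted p = 0.02996) and a higher one under Lovastatin (28.1 and 21.2, adjusted p = 0.0293), against 17.4% of compounds called lower and 9.88% called higher in this line. Neither ZR-75-1 value passed when raw read shares were used (-15.5, adjusted p = 0.280, and 13.9, adjusted p = 0.337) or when sgHSF1 and sgKEAP1 were kept in the mean (-27.9, adjusted p = 0.0752, and 26.4, adjusted p = 0.0948). The Fluvastatin value also did not pass against the 12 DMSO wells with the same labels (adjusted p = 0.125), nor the Lovastatin value with the median of the sgRNAs (19.6, adjusted p = 0.0940). Since each difference takes the other 4 lines as its reference, a lower AUC in MDA-MB-231 by itself raises the value of every other line. In SKBR3 no statin passed, with means between 6.69 and 11.2.

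The last question was whether loss of a stress response gene changed the response of a line to a statin. No line-sgRNA pair differed from the median of the sgRNAs of its line in AUC at an adjusted p of 0.05 in limma, in 58 pairs under each of the 3 statins, and 14 of the tests had an unadjusted p under 0.05. Across all compounds, 0.221% of the tests were called below the median and 0.672% above. edgeR on the read counts at 10000 nM also called 0 pairs, with 10 at an unadjusted p under 0.05. The replicates had the same sign in 24 of 58 pairs for Fluvastatin, 30 for Simvastatin and 36 for Lovastatin, and across the 58 pairs the differences of replicate 1 and replicate 2 had a Pearson r of 0.025, 0.18 and 0.18, a description over pairs that share wells and controls. Shares of tests at an unadjusted p under 0.05, and of pairs with the same sign, were not counted over all compounds. The 14, 10, 24, 30 and 36 thus have no background beside them.

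In MDA-MB-231, the line with the lowest cell numbers at 10000 nM, every one of the 12 sgRNA populations was low at that dose. Their means over both replicates ran from 10.5% to 27.2% under Fluvastatin, from 22.9% to 39.7% under Simvastatin and from 12.5% to 20.9% under Lovastatin. At 1000 nM they ran from 26.3% to 46.5% under Fluvastatin, from 78.7% to 110.4% under Simvastatin and from 55.6% to 101.9% under Lovastatin. The ranges of Fluvastatin and of the other statins did not overlap at 1000 nM, and at 10000 nM those of Simvastatin and Lovastatin did not. The 12 populations of a statin and dose share the same wells and so any error of those wells. The gaps between ranges are therefore a description across sgRNAs and not a separate test of a difference between statins.

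By target, the unfolded protein response sgRNAs held 75 tests, with 24 above and 18 below their line median in both replicates and a median difference of 0.86 AUC units. The heat shock sgRNAs were above in 7 and below in 9 of 27, the oxidative stress sgRNAs above in 5 and below in 5 of 27, sgATG7 above in 4 and below in 5 of 15, sgSLC35F2 above in 2 and below in 6 of 15, and sgNT above in 3 and below in 2 of 15. Over all 58 pairs, both replicates lay on one side in 41.4% under Fluvastatin, 51.7% under Simvastatin and 62.1% under Lovastatin. No target group was tested as a set. The sgNT cells, which carry no targeted gene, had AUC differences from -28.9 to 27.1.

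The pairs farthest from their median with both replicates on one side are given as values, none of which passed. Under Fluvastatin, the lowest was sgHSF1 in MDA-MB-231, at -38.2 and -50.8 (mean -44.5, adjusted p = 0.106). Its cell number was not low at the doses at which Fluvastatin lowered this line past the test. It was 33.9% at 1000 nM and 18.9% at 10000 nM, where the medians of the 12 sgRNAs were 32.9% and 17.1%. HSF1 is the main transcription factor of the heat shock response. It was followed in SKBR3 by sgKEAP1, against the adaptor that marks NRF2 for degradation (-2.72 and -73.6), and sgATF6, against a membrane-bound sensor of the unfolded protein response (-25.3 and -31.2). The highest under Fluvastatin were sgERN1 in SKBR3 (48.2 and 41.1, mean 44.7, adjusted p = 0.226), sgHSF2 in SKBR3 (13.6 and 43.4) and sgERN1 in BT-20 (11.4 and 34.05). ERN1 encodes IRE1, the endoplasmic reticulum kinase and nuclease that splices XBP1.

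Under Simvastatin, the lowest were sgATF3 in ZR-75-1 (-49.4 and -55.3, mean -52.3, adjusted p = 0.248), sgSLC35F2 in ZR-75-1 (-25.6 and -64.6) and sgNFE2L2 in HCC-38 (-40.1 and -16.5, mean -28.3, adjusted p = 0.0863). NFE2L2 encodes NRF2, the transcription factor of antioxidant genes, and this pair had the lowest p of all. The highest were sgATG7 in ZR-75-1 (3.797 and 57.3), sgXBP1 in SKBR3 (27.7 and 28.2) and sgNT in MDA-MB-231 (9.95 and 44.2). Under Lovastatin, the highest were all in ZR-75-1: sgATF6 (102.2 and 20.3, mean 61.2, adjusted p = 0.272), sgATF4 (18.2 and 77.9) and sgSLC35F2 (55.8 and 26.6). The lowest were sgATF6 in BT-20 (-57.9 and -0.317), sgNT in MDA-MB-231 (-55.4 and -2.39) and sgERN1 in ZR-75-1 (-30.0 and -25.3). These AUC differences need not hold at 10000 nM, the only dose at which Lovastatin lowered ZR-75-1 past the test. There sgSLC35F2 was the lowest population of ZR-75-1 (44.6%). At that dose sgATF4 (71.5%) was under the line mean of 74.1% and sgATF6 (87.4%) above it.

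The guides behind 4 of these values are printed to show what a line-sgRNA pair is read from, each 20 bases as deposited and all in lower case since no part is singled out. Each target had this 1 guide, so a value of an sgRNA is also a value of that guide.
sgNFE2L2: cacatccagtcagaaaccag
sgERN1: tctccctcaatggtacacga
sgATF3: ccagcgcagaggacatccgg
sgATF6: tgagccctgcaaatcaaagg

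**Figure D4:**
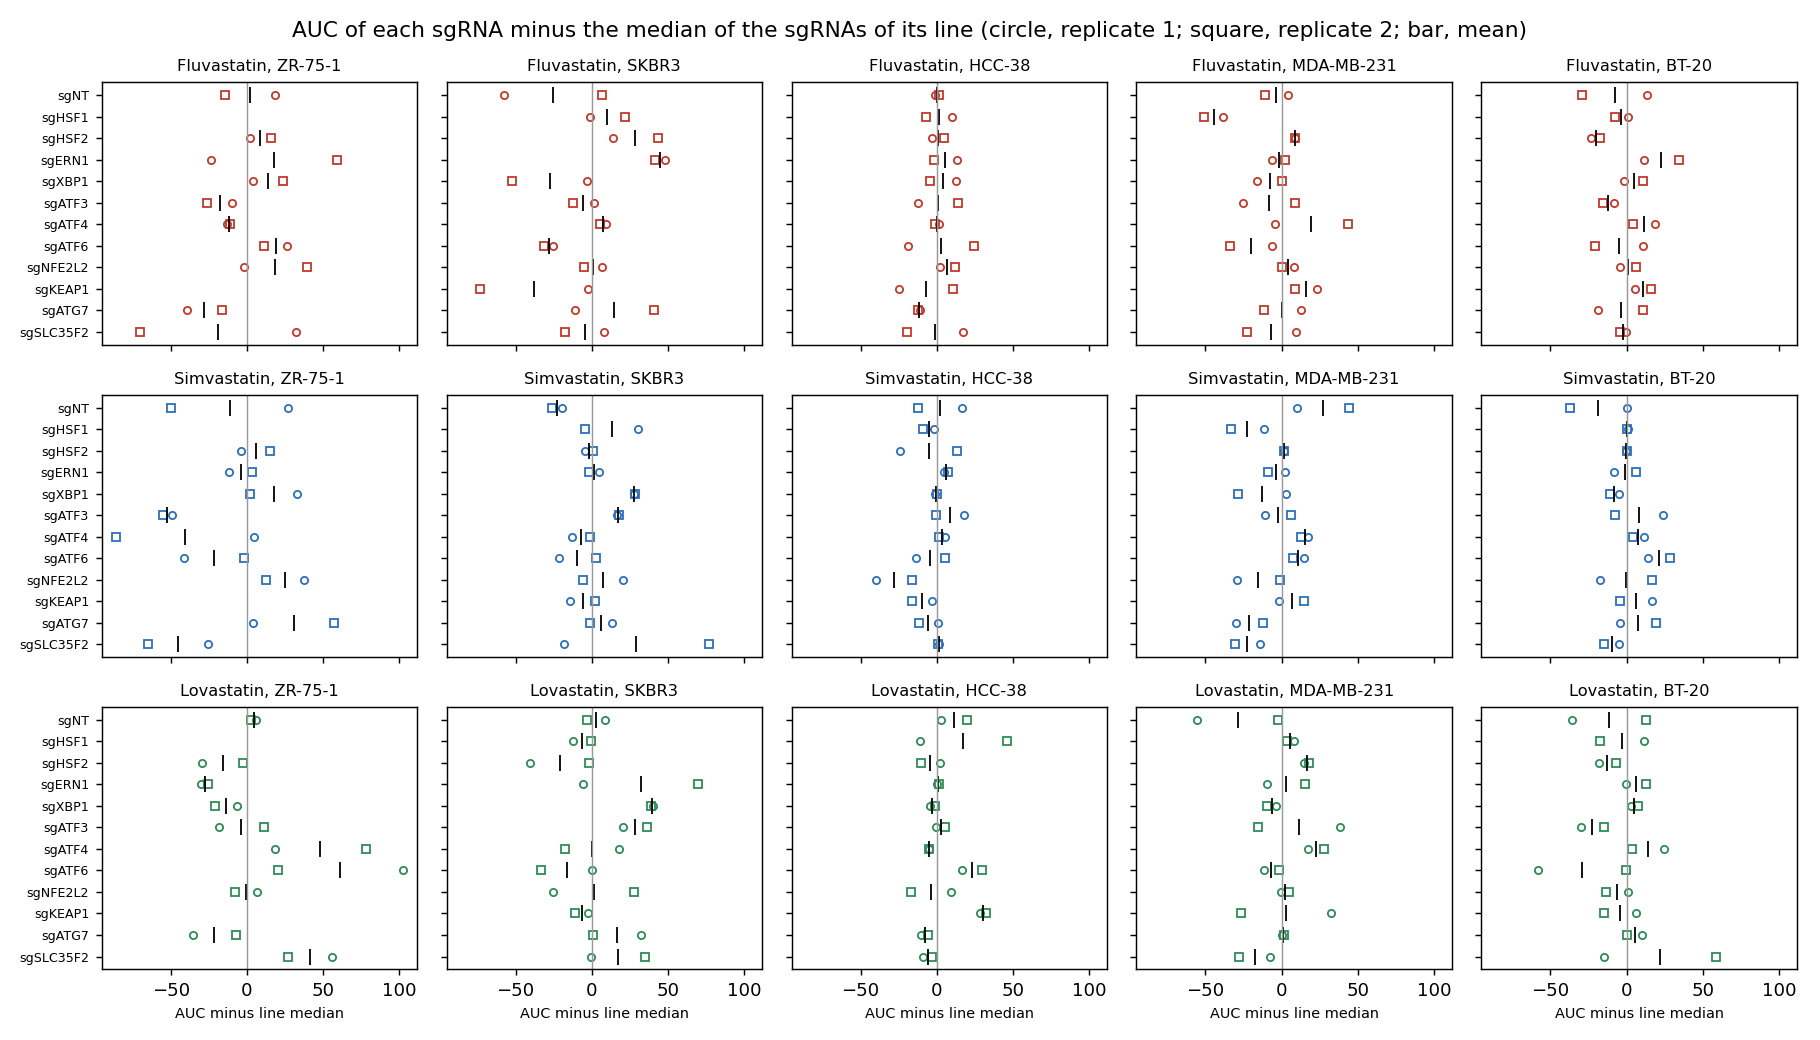
AUC of each sgRNA minus the median of the sgRNAs of its line (x axis, AUC units) for 12 sgRNAs (y axis) in 15 panels of statin and line; circles are replicate 1, squares replicate 2 and bars their mean. Circles and squares often fall on opposite sides of 0, and the sgNT row spans -28.9 to 27.1 in its means.

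In MDA-MB-231, sgHSF1 was at -44.5 under Fluvastatin, -22.4 under Simvastatin and 5.57 under Lovastatin. Across the 58 pairs the mean differences had a Pearson r of 0.20 between Fluvastatin and Simvastatin, 0.10 between Fluvastatin and Lovastatin and -0.24 between Simvastatin and Lovastatin. All 3 statins share the DMSO wells, so these values are descriptions only. In 3 of the 58 pairs, found after the values were seen, all 6 replicate values lay on one side: sgHSF2 was higher in MDA-MB-231 (means of 8.87, 1.59 and 16.3 under Fluvastatin, Simvastatin and Lovastatin) and lower in BT-20 (-20.3, -0.085 and -12.6), and sgATF4 was higher in BT-20 (11.5, 7.75 and 13.8). Under Simvastatin the replicates of sgHSF2 in BT-20, at -0.17 and -0.000634, were practically at the median. How many such pairs arise by chance was not tested. The higher AUC of sgHSF2 in MDA-MB-231 was not seen at 10000 nM. Under Simvastatin it was the lowest of the 12 sgRNAs at that dose (22.9%, median 32.6%). Under Fluvastatin (17.1%, median 17.1%) and Lovastatin (15.4%, median 15.2%) it was near the median.

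Profiles of the 3 statins over the 20 combinations of line and dose were compared by the root mean square difference of their log2 values. Lovastatin was 0.28 from Simvastatin and 0.38 from Fluvastatin, and Simvastatin was 0.46 from Fluvastatin, where the 2 replicates of a statin were 0.25 (Fluvastatin), 0.14 (Simvastatin) and 0.19 (Lovastatin) apart. Distances between compounds use the mean of the 2 replicates, and those between replicates use single wells, so they are not directly comparable. Among all other compounds in the fit, Lovastatin was nearest to Erastin (0.19), an inducer of ferroptosis, then to Simvastatin and to VER155008 (0.34), an HSP70 inhibitor. Fluvastatin stood at rank 5 from Lovastatin. Simvastatin was nearest to the MEK inhibitors PD318088 (0.19) and Selumetinib (0.24) and to the GSK3 inhibitor CHIR99021 (0.26). Lovastatin stood at rank 5 from Simvastatin, but Fluvastatin only at rank 87. Fluvastatin was nearest to Erastin (0.36), STF31 (0.36) and the MEK inhibitor Trametinib (0.38), with Lovastatin at rank 4 and Simvastatin at rank 14. All of these compounds were given up to 10000 nM.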

How the data were processed

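Per the labels and methods, the authors induced Cas9, treated the pooled lines, lysed them with 293T spike-in cells, amplified the barcodes and demultiplexed the reads with bcl2fastq. The deposited counts are reads per barcode pair (126 pairs per well), with no normalization. The deposited relative cell numbers are a ratio, in percent: cells estimated from the spike-ins of the same well, over the DMSO median. The statins and the lists were chosen with earlier results of these data known.

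Relative cell numbers of DMSO wells, which the table does not hold, were rebuilt here from read counts, by inverting a least-squares line of log10 reads on log10 cells over 5 spike-ins per well and dividing by the median of 96 DMSO wells. The same steps matched the 83520 deposited values within 5.32e-05 on the log2 scale. limma 3.58.1 (R 4.3.3) was fitted to log2(line mean + 1) or AUC over all compounds with relative cell numbers (Ruxolitinib and STF083010 left out for an AUC over 550, as in the methods), so that all duplicate wells share 1 estimate of the spread; p-values are two-sided and Benjamini-Hochberg adjusted over 3440 tests against DMSO, 15 or 60 differences between statins, 860 line contrasts and 9976 sgRNA contrasts. Fits were tested on simulated data. edgeR 4.0.16 was an alternative on counts. Named line-sgRNA pairs were those past an adjusted p of 0.05 and, for each statin, the 3 highest and 3 lowest AUC differences with the same sign in both replicates; the 3 nearest compounds were named for each statin. Counting intervals were not used, since amplified reads that lack molecular identifiers are not separate molecules. Replicate numbers were not used as a block in these fits; the labels tie them to plates for the DMSO wells only. Alternatives included other summaries of a line (sgNT alone, median), scales, DMSO references, a replicate block and leaving out a replicate. The raw reads and the imaging were not used here.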

Additional observations from a re-analysis of the deposited data

Results flagged for a closer look

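The response of a line to a statin differed from that of the other 4 lines in 7 of 15 combinations of statin and line (limma on AUC differences within a replicate, adjusted p of 0.05). For MDA-MB-231 the differences were -75.9 under Fluvastatin, -44.9 under Lovastatin and -29.8 under Simvastatin. HCC-38 (55.5) and BT-20 (34.1) were higher under Fluvastatin. ZR-75-1 was lower under Fluvastatin (-24.5) and higher under Lovastatin (24.6). Neither ZR-75-1 value passed with raw read shares, with all 12 sgRNAs or with sgNT alone. Over all compounds, 29.7% were called lower in MDA-MB-231, 27.9% higher in HCC-38 and 45.9% higher in BT-20. In ZR-75-1, 17.4% were called lower and 9.88% higher.

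In the Lovastatin well at 10 nM, replicate 1, 1.14% of the reads lay on barcode pairs that no cell population was made with, above the highest DMSO well (0.924%). In the other 23 statin wells the share was at most 0.630%. The same well held the highest relative cell numbers among the statin wells in 4 of the 5 lines (130.9% in ZR-75-1, 121.6% in MDA-MB-231, 112.9% in BT-20 and 104.9% in SKBR3), with HCC-38 at 98.4% the exception, and the part of these reads in that was not tested.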

How the results depend on the processing

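The number of statin values below DMSO was 14 of 60. It was 15 with the replicate number as a block (replicate block), 11 without replicate 1 and 15 without replicate 2, and 8 with sgNT alone. The differences between statins at matched doses that passed were 8 of 60, 8 with the block and 4 with sgNT alone. Those in AUC were 4 of 15, 4 with the block and 0 with sgNT alone. Lines that differed from the other lines were 7 of 15, 7 with the block and 1 with sgNT alone. No sgRNA call was made, with or without the block. The methods' t-test of sgRNA against sgNT, in 53 pairs under each of the 3 statins, gave 2 calls at an unadjusted p of 0.05 and a difference over 25. It was run here without the methods' exclusion of line-compound pairs in which sgNT cells fell little. Its share of calls over all compounds was not counted. Of the called values, 2 changed sign, both with sgNT alone: Fluvastatin in ZR-75-1 at 100 nM (0.040 on the log2 scale) and Simvastatin in MDA-MB-231 against the other lines (11.5). The cause was not tested. The other alternatives stayed within 1.5 times of each count. Replicate 1 minus replicate 2 across the 20 combinations of line and dose had a Pearson r of -0.17 to 0.67 between statins, with 2 replicates too few to settle a pairing. Leaving out a replicate at matched doses was chosen after seeing the data; each of the 8 differences kept its sign. Leaving out a replicate for sgRNAs gave no called value to set beside another.

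There were 2 wells per dose and 190 or more reads per line-sgRNA pair, and how much each limits precision was not compared.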
